A study of Mus musculus with 2 samples.

Results

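Cassette exons were read from the splice junctions of mouse mammary gland: an exon was taken where one junction jumps over it and 2 further junctions, sharing the outer ends of the first, join it to its neighbours. Only junctions with a deposited score under 0.1 entered, and the exon had to be 20 to 500 nt long. This gave 4068 triples of junctions around 3687 distinct exons, out of 139927 junctions under the score limit and 465423 listed in all. Because the score and the presence of reads on all 3 junctions chose these exons, their number and the mere presence of skipping are properties of the choice and not findings.

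The tissue came from C57BL/6J mice of 8 weeks, pooled littermates of both sexes with no treatment or altered gene named in the labels, and 2 RNA libraries were sequenced, which the labels number as biological replicates. Both libraries carry the same donor label and fall in 1 group, so no contrast exists, no p-value is given, and differences below compare these 2 libraries with each other. The junction table is one table for the series. Each junction carries counts coded R1 and R2, which add up to its total, and the sources used here do not state which replicate each code stands for. Below, R1 is set beside replicate 1 and R2 beside replicate 2, a pairing by number that is an assumption. Junction reads totalled 20291944 in R1 and 15601699 in R2. The tissue label was checked against marker genes in the gene tables, in TPM, a level scaled for transcript length and library size: 5 adipocyte markers summed to 17145 in replicate 1 and 32112 in replicate 2, 4 luminal epithelial markers to 723 and 1253, and 4 basal epithelial markers to 633 and 497. The 8 skeletal muscle markers summed to 27428 TPM in replicate 1 and 13.4 TPM in replicate 2, with Acta1, the skeletal muscle actin, at 11332 and 5.93. In replicate 2, the muscle markers Mylpf, Tnnt3, Ryr1 and Mybpc2 were all under 1 TPM. In bulk tissue, fewer cells of a type and less RNA per cell cannot be told apart.

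A cassette exon is an exon that the spliceosome either joins into the mature RNA or leaves out with its 2 flanking introns as one long intron. An exon whose length is divisible by 3 can be added or removed without shifting the reading frame, whereas others shift it and often expose a premature stop codon, after which the RNA is degraded by nonsense-mediated decay (NMD). Many genes of RNA-binding proteins hold so-called poison exons that limit their own expression in this way. Very short exons, called microexons, are mostly known from neurons and muscle, and proteins such as RBFOX, MBNL, PTBP1 and the epithelial ESRP factors bind near alternative exons and set their inclusion by cell type.

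The sequences below show short protein-coding exons that the values later turn on. Capitals mark the cassette exon and the lower case letters the last 15 bases of the exon before and the first 15 of the exon after it, as the annotated transcript joins them. The letters were read 5′ to 3′ from GENCODE M21 transcripts, and positions are those of the exon on mm10. The first set holds exons that were much more included in R1 than in R2, in the transcription factor Mef2d (chr3:88161781-88161801, plus strand), the calcineurin catalytic subunit Ppp3ca (chr3:136932011-136932040, plus strand) and the glucose 6-phosphate transporter Slc37a4 (chr9:44401707-44401769, plus strand).
Mef2d, 21 nt: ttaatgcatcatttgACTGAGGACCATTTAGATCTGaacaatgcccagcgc
Ppp3ca, 30 nt: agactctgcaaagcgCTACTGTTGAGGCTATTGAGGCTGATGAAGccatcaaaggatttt
Slc37a4, 63 nt: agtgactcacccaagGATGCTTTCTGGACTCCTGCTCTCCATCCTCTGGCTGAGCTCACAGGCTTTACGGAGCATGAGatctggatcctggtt

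The second set is a pair of alternative exons of the splicing factor Rbfox2 that lie between the same neighbours, on the minus strand at chr15:77091812-77091854 and chr15:77094451-77094490. Both leave the same bases on either side when joined, and neither length is divisible by 3.
Rbfox2, 43 nt: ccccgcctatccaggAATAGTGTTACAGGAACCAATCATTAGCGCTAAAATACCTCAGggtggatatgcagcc
Rbfox2, 40 nt: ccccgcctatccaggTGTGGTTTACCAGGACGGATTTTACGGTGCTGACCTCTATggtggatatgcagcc

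The third set holds short exons, each of a length divisible by 3, in genes of membrane traffic, metabolism and the cytoskeleton. These are the clathrin light chain Clta (chr4:44031400-44031435, plus strand), the clathrin heavy chain Cltc (chr11:86701061-86701081, minus strand), the exocyst subunit Exoc7 (chr11:116293275-116293313, minus strand), the clathrin assembly protein Picalm (chr7:90194273-90194296, plus strand), ATP citrate lyase Acly (chr11:100503160-100503189, minus strand), the insulin receptor Insr (chr8:3181702-3181737, minus strand) and filamin A, Flna (chrX:74232967-74232990, minus strand).
Clta, 36 nt: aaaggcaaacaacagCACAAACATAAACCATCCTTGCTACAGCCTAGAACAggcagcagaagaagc
Cltc, 21 nt: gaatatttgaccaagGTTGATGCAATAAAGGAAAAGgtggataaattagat
Exoc7, 39 nt: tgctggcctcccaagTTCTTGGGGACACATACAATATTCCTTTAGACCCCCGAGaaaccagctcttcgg
Picalm, 24 nt: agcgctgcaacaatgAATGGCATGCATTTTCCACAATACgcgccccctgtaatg
Acly, 30 nt: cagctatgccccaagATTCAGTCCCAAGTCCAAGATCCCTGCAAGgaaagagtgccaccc
Insr, 36 nt: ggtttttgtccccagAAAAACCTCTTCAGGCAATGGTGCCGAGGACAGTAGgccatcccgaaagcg
Flna, 24 nt: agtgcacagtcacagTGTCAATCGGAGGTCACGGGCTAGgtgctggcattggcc

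Inclusion is given as the percent of informative reads that join the exon: the mean of the reads on its 2 inclusion junctions, divided by that mean plus the reads on the skipping junction. Its 95% Clopper-Pearson interval covers counting error only, since reads without molecular identifiers are not independent molecules. Values are given for triples with at least 20 informative reads in each of R1 and R2, which were 3288 of the 4068 (80.8%), and 780 triples were shallower. Among the 4068, 2841 triples (69.8%) could be tied to 1 gene, which named 2724 exons in 2038 genes, and 2397 of these reached the read minimum. Of the exons, 3379 stood in 1 triple each, and 308 in several, up to 6, which share reads. At the edges of the rule, 764 triples had a highest score of 0.091, just inside the limit, and 2 had 0.1, just outside. There were 8 triples with an exon of 20 nt and 1 with 19 nt, and 5 with 500 nt and 1 with 501 nt.

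The median inclusion was 80.7% over both libraries, 80.5% in R1 and 80.8% in R2. The middle of the distribution was thin. Of the 3288 triples, 407 were included in under 10% of the reads, 698 in 10 to 50%, 935 in 50 to 90% and 1248 in 90% or more. Thus 1105 triples (33.6%) had inclusion under 50%, and 88 lay between 40 and 60% in both R1 and R2. All triples found with no limit on the score, 16827 of them at the same read minimum, had a median inclusion of 96.5%.

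**Figure D1:**
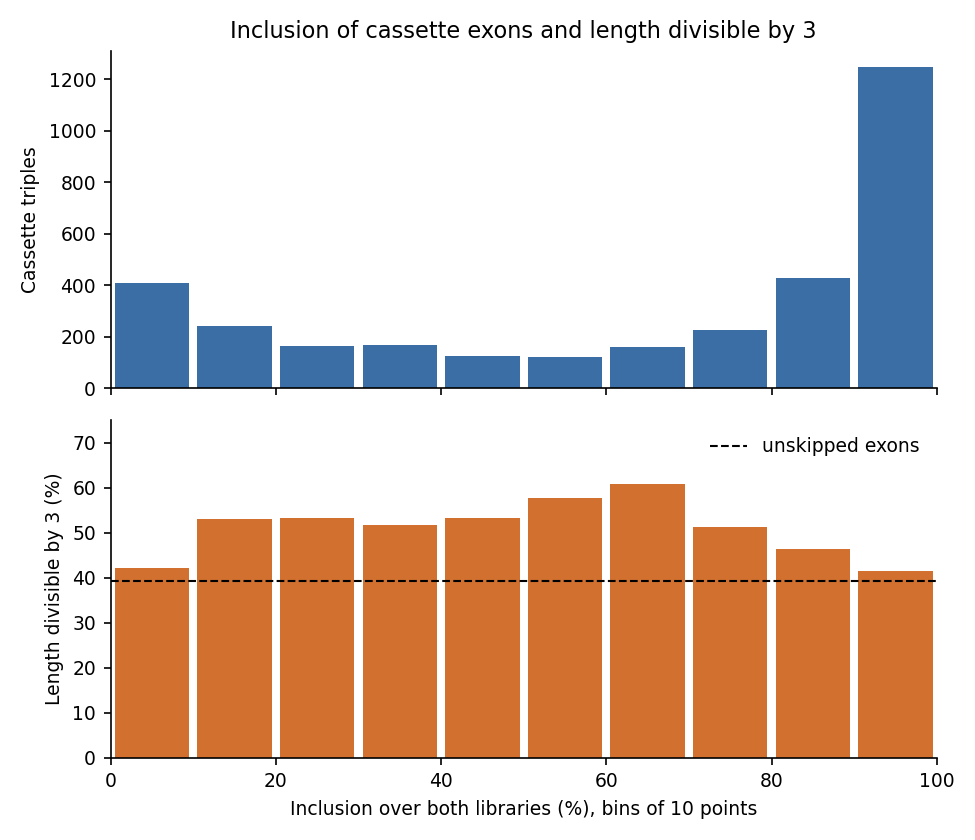
Upper panel, number of cassette triples in each bin of 10 points of inclusion (percent, both libraries). Lower panel, percent of the triples in that bin whose exon length is divisible by 3, with the dashed line at 39.3%, the level of unskipped exons. The highest bin holds more triples than any other bin, and the middle bins of the lower panel stand above the line.

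A larger share of cassette exons than of unskipped exons had a length that keeps the reading frame, and the share was largest in coding exons included under 50%. Exons are not replicates, so these shares are a description. A length divisible by 3 was found in 46.9% of the 3288 triples, compared with 39.3% of 77050 unskipped exons of the same size range. Over these, no junction that shares an outer end with the exon's own junctions jumps. Junctions with other outer ends were not checked. By inclusion, the share was 42.3% under 10%, 52.9% at 10 to 50%, 51.6% at 50 to 90% and 41.6% at 90% or more. Among the 1691 triples whose exon is wholly coding in the annotation the share was 56.0%, beside 39.9% of the unskipped coding exons. Of the 317 coding triples with inclusion under 50%, 266 (83.9%) had a length divisible by 3. Where the annotation has a coding transcript without the exon, the share was 78.6% of 833 triples, and where it has only NMD transcripts without it, 3.82% of 157. Of the 317 coding triples under 50%, 293 also have an annotated coding transcript without the exon. The annotation itself uses the frame to assign NMD, so neither the shares of coding exons nor these last values are independent of it.

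Among named triples, the class with the lowest median inclusion was exons that the annotation places in NMD transcripts alone. Unnamed triples have no class here. Of the 407 triples under 10% inclusion 203 (49.9%) were named, and of those at 90% or more 81.2%. The 147 such triples had a median inclusion of 25.4%, and an annotated stop codon lay inside the exon in 117. Coding exons had a median of 90.04% (n = 1691), partly coding exons 81.5% (n = 229), untranslated exons 48.3% (n = 244) and exons of non-coding transcripts 33.8% (n = 86). Exons in NMD transcripts alone made up 21.2% of the named triples under 10% inclusion, 12.4% at 10 to 50%, 4.48% at 50 to 90% and 1.38% at 90% or more, beside 0.290% of named unskipped exons. Of the 147 triples, 124 have an annotated coding transcript that skips the exon. Unskipped exons were chosen to lack such skipping junctions, so their low share is not independent of that choice. The skipped form was itself annotated in 99.5% of the named triples under 10% and in 46.0% of those at 90% or more. In steady-state RNA, inclusion of an exon whose RNA is degraded is a lower level than the share spliced, and these files do not separate the steps.

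**Figure D2:**
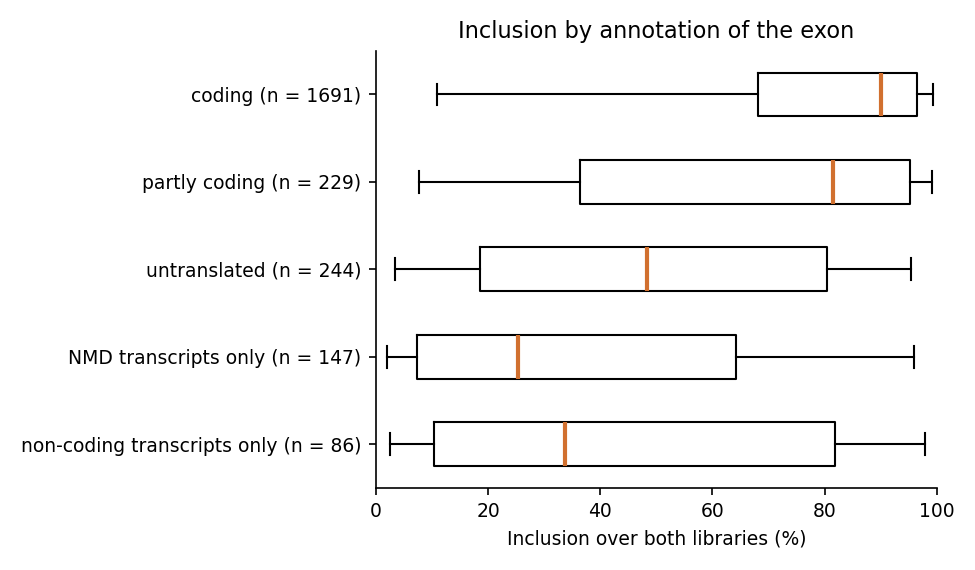
Inclusion (percent, both libraries) by how GENCODE M21 annotates the exon. Boxes span the quartiles with the median as a coloured line, and whiskers reach from the 5th to the 95th percentile of triples. Coding exons sit at a median of 90.04%, exons of NMD transcripts alone at 25.4%.

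The splicing factors gave clear cases of such exons, which were picked after their values were seen. In Srsf7, an SR protein, a 460 nt exon with an annotated stop codon had 17 and 28 reads on its inclusion junctions in R1 against 88 skipping it, and 8 and 12 against 36 in R2. Its inclusion was 20.4% in R1 and 21.7% in R2. In Srsf11, a relative, a 117 nt exon stood at 14.9% and 11.2%, with overlapping intervals. In Srsf6 a 268 nt exon was higher in R1, at 13.5% (9.18 to 18.95) against 5.75% (3.60 to 8.66). A 70 nt exon of Hnrnpl, which codes for an hnRNP, was included at 21.5% (18.0 to 25.6) in R1 and 13.5% (10.95 to 16.3) in R2. The transcript tables gave 45.1% and 5.92% for Srsf6, and 28.4% and 29.2% for this Hnrnpl exon. The same kind of exon occurred in a gene of fat metabolism: an 82 nt exon of Pnpla2, the adipose triglyceride lipase, had 2.39% and 1.57% inclusion over 2264 and 2940 skipping reads.

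Cassette exons were shorter than unskipped ones, with a median of 109 nt against 123 nt, within the window of 20 to 500 nt that the rule set. Exons of 27 nt or fewer numbered 76 of 3687 (2.06%) compared with 280 of the 77050 unskipped exons (0.363%). The exon's last 2 bases, which pair with the U1 RNA of the spliceosome, were AG in 55.4% of named triples and 55.7% of unskipped exons, and the last base was G in 80.6% and 80.7%. The first base was G in 43.5% and 49.8%. Median GC content was 54.6% against 52.2%, and it was lowest, 52.2%, in the triples under 10% inclusion and highest, 55.7%, in those at 90% or more. In the deposited contigs, which are stretches of transcribed sequence, 98.7% of cassette triples had their exon fully covered on the same strand, beside 98.5% of unskipped exons. How the contigs were called is not given in the sources used here. Under 10% inclusion the covered share was 97.3%.

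The shortest exons by the naming rule ranged from nearly absent to mostly included. Cacnb3, a calcium channel beta subunit, had a 20 nt exon with 66 and 75 inclusion reads against 11 skipping reads in R1 and 76 and 82 against 6 in R2, an inclusion of 86.5% and 92.9%. A 20 nt untranslated exon of Pgap2, which acts in GPI anchor maturation, stood at 27.5% (14.6 to 46.3) and 55.6% (34.5 to 76.8), so the intervals overlapped at this depth. The 21 nt exon of Arhgef40 was at 13.6% and 16.2%. The 21 nt exon of Cltc had 9 and 7 inclusion reads against 176 skipping reads in R1, and no inclusion read against 87 in R2. That is 4.35% (1.90 to 8.39) against 0 with an upper limit of 4.15%, again overlapping. In Tmem184b, a membrane protein gene, a 21 nt exon was at 4.94% (2.88 to 8.28) in R1 and 0.679% (0.221 to 1.58) in R2, and these intervals did not overlap.

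Where the skipped form dominated, abundant genes supplied many reads around a rare exon. Tkt, a transketolase of the pentose phosphate pathway, had 22924 and 36007 reads that skipped a 43 nt exon, which was included at 0.0632% in R1 and 0.0500% in R2. For Pkm, pyruvate kinase, 35788 and 17614 reads skipped a 184 nt untranslated exon, included at 0.0712% and 0.105%. Plin2, a lipid droplet coat protein, held a 73 nt exon at 0.0975% and 0.0751%. In each of these 3 genes the R1 and R2 intervals overlapped. Igfbp7, a secreted IGF-binding protein, had a 93 nt exon at 0.465% and 0.321% over 4496 and 11165 skipping reads, with intervals that also overlapped.

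The collagen chaperone Serpinh1 had a 44 nt untranslated exon at 1.04% and 0.747% and an 84 nt one at 0.705% and 0.470%, both against the same 3380 and 10689 skipping reads. Counted against another, rarer skipping junction with 10 and 32 reads, the same 44 nt exon came to 58.3% and 47.1%, so a value belongs to its triple and not to the exon as such. Cd74, the invariant chain of MHC class II, was skipped by 8398 and 10504 reads around a 192 nt coding exon. Its inclusion was 16.9% (16.2 to 17.6) in R1 and 16.9% (16.3 to 17.6) in R2. Galectin-1, Lgals1, had a 103 nt exon at 0.408% and 0.295%, and Ly6e, a surface protein of the Ly6 family, a 49 nt exon at 0.239% and 0.643%. The 69 nt exon of Raly, an hnRNP, was at 1.00% and 0.423%.

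A few of these heavily skipped exons did differ between the libraries. In Aldoa, the aldolase of muscle and many other tissues, 605 and 1087 reads included a 153 nt exon in R1 against 27722 that skipped it, and in R2 152 and 768 against 4027. Inclusion was therefore 2.96% (2.77 to 3.16) and 10.3% (9.38 to 11.2), with gene levels of 6523 TPM in replicate 1 and 2650 TPM in replicate 2. Counted from another upstream neighbour, with 4515 and 8881 skipping reads, the same Aldoa exon was at 13.5% (12.5 to 14.4) in R1 and 6.54% (6.06 to 7.06) in R2, the opposite order. The 84 nt exon of Mgll, monoglyceride lipase, was at 0.567% and 0.0793%. An 86 nt exon of Uqcr10, a subunit of respiratory complex III, was at 5.41% (4.84 to 6.03) and 2.80% (2.31 to 3.36), and Mgst1, a microsomal glutathione transferase, had a 108 nt exon at 1.94% (1.61 to 2.31) and 1.31% (0.967 to 1.77), where the intervals overlapped. Actb, beta-actin, had a 63 nt exon at 0.973% in R1 and 0.0232% in R2, while its transcript share was 3.26% in replicate 1 and 23.3% in replicate 2. Reads of the actins are uncertain, because the family members are nearly identical in coding sequence and the counting of shared reads is not stated here.

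At the other extreme of balance, some exons were close to 50% in both libraries. Ubp1, a transcription factor gene, had a 108 nt exon at 50.1% (45.8 to 54.4) in R1 and 50.6% (44.8 to 56.6) in R2. Baiap2, an adaptor protein of the actin cytoskeleton, had a 48 nt exon at 45.6% and 53.5%. The 23 nt exon of Pecam1, an adhesion molecule of endothelial cells, stood at 52.1% and 45.3%. Map3k7, the kinase TAK1, had an 81 nt exon at 50.7% and 51.7%, and its transcripts in the TPM tables gave 47.2% and 43.5%. All 4 pairs of intervals overlapped.

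R1 and R2 gave much the same inclusion for most exons. The median absolute difference was 3.61 points, and 1957 of the 3288 triples (59.5%) lay within 5 points. Across triples, which share libraries and partly share junctions, Pearson's correlation was 0.956 and Spearman's rank correlation 0.925 (n = 3288). The 95% intervals of R1 and R2 did not overlap in 374 triples (11.4%), beside 3.79% of the 16827 triples with no score limit. Inclusion was higher in R1 in 240 of them (7.30% of 3288, beside 2.34%) and higher in R2 in 134 (4.08%, beside 1.45%). The median inclusion of the 16827 triples with no score limit was 96.5%, nearer the upper bound than that of the cassette triples. Of the cassette triples whose 2 inclusion junctions lay within 3-fold of each other, 2135 of the 3288, intervals did not overlap in 232. Uneven junctions are pointed out in the text for some exons only. In 135 of the 374 triples (4.11% of 3288) the difference was over 20 points, with 82 higher in R1 (2.49%) and 53 in R2 (1.61%). The same cut was not counted over the triples with no score limit, so these shares have no background.

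**Figure D3:**
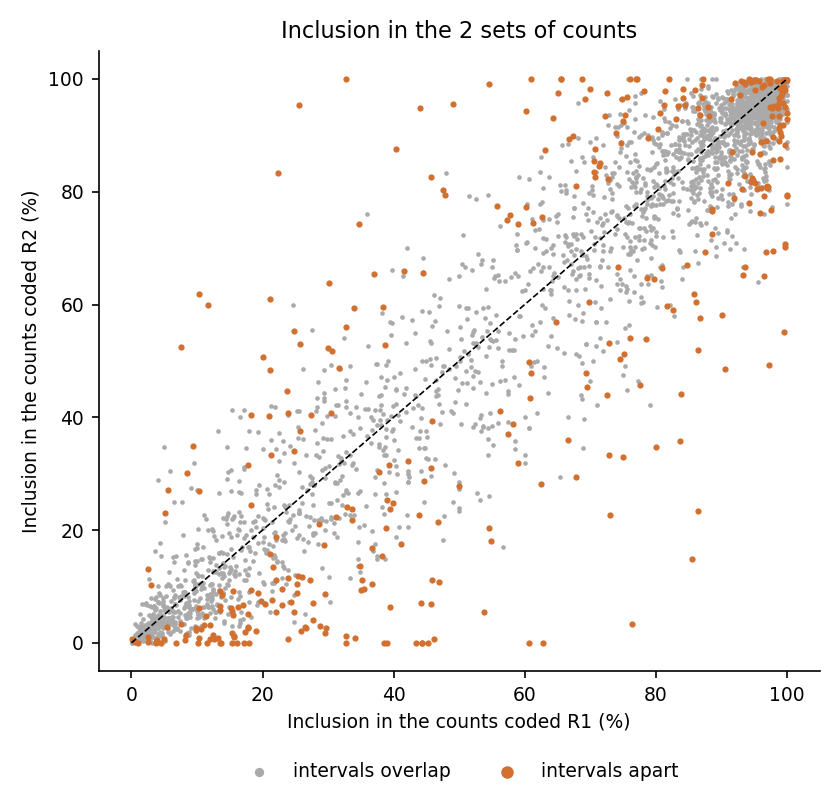
Inclusion in R1 (x axis, percent) against R2 (y axis, percent) for 3288 cassette triples, with the line of equality dashed. Orange points are the 374 triples whose 95% intervals do not overlap; they lie on both sides of the line, more often below it.

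The largest difference that the naming rule took was in Cacnb1. In this gene of the calcium channel beta subunit of skeletal muscle, the 155 nt exon at chr11:97872657-97872811 on mm9 had 238 and 213 inclusion reads against 38 skipping reads in R1, but 9 and 7 against 46 in R2. Inclusion was 85.6% (80.8 to 89.6) in R1 and 14.8% (6.62 to 27.1) in R2, and the transcript tables gave 92.7% in replicate 1 and 38.3% in replicate 2. In Pdlim7, a cytoskeletal PDZ and LIM protein, the 119 nt exon at chr13:55609569-55609687 on mm9 went the other way, with 25.6% (21.4 to 30.1) and 95.3% (91.3 to 97.8). The transcript tables gave 25.8% and 93.3% for it. In R2 its inclusion junctions were uneven, at 357 and 8 reads, against 9 skipping reads. In another triple, with a different downstream neighbour, the same Pdlim7 exon was at 89.1% (82.7 to 93.8) and 87.0% (82.7 to 90.6), so it did not differ there beyond counting error. Filamin C, Flnc, a filamin of striated muscle, had a 99 nt exon at 32.7% (20.3 to 47.1) in R1 with 35 skipping reads and 100% in R2, where no read skipped it and the lower limit was 87.7%.

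Among the others picked by size of difference, the scaffold kinase Ksr1 had 10 and 108 inclusion reads for an 81 nt exon in R1 and none in R2, with 35 and 33 skipping reads. Its inclusion was 62.8% and 0, with an upper limit of 10.6%. Arl3, a GTPase of ciliary traffic, had a 68 nt exon at 60.7% in R1 and 0 in R2, with an upper limit of 10.003%. The 175 nt untranslated exon of Adnp, a homeobox gene, stood at 86.4% (65.1 to 97.1) and 23.5% (12.4 to 40.3). A 51 nt exon of Mical3, which oxidises actin, was at 73.1% (52.2 to 88.4) and 22.7% (7.82 to 45.4). Both were near the read minimum, with 22 informative reads for Adnp in R1 and 26 and 22 for Mical3. In R2 the inclusion junctions of Mical3 had 10 and 0 reads, so its value there is carried by 1 junction. A 180 nt exon of the zinc finger gene Zbtb25 was at 97.3% and 49.3%. Higher in R2 were a 497 nt exon of Hnrnpl, at 10.3% and 61.8%, and a 111 nt exon of Pex5, the peroxisomal import receptor, at 11.6% and 60%. The Hnrnpl value in R2 rested on uneven junctions of 11 and 70 reads. The transcript tables gave 0.945% in replicate 1 and 3.49% in replicate 2 for this Hnrnpl exon and 7.18% and 3.45% for Mical3, far from the junction values. They gave 87.1% and 4.90% for Adnp and 18.4% and 30.1% for Pex5, and no value for Ksr1, Arl3 and Zbtb25.

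**Figure D4:**
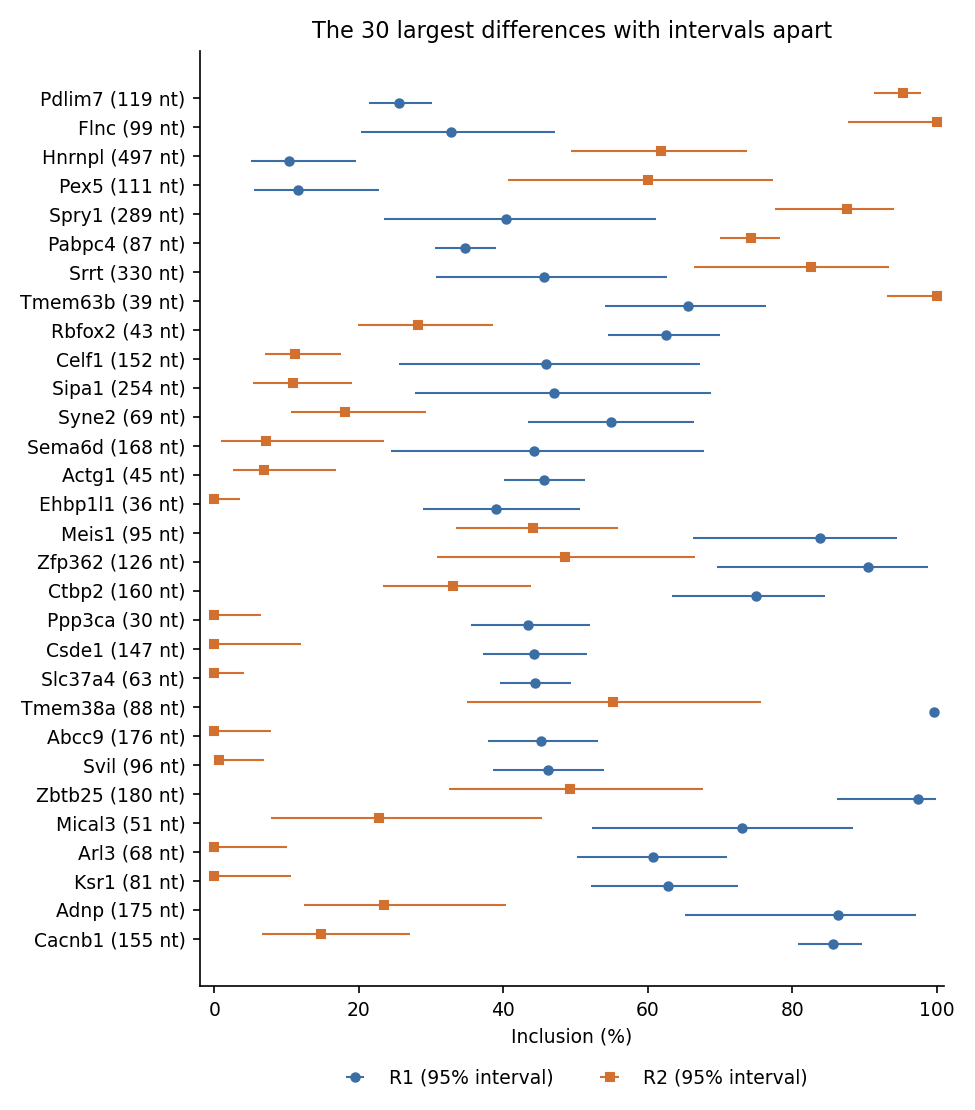
The 30 named exons with the largest difference of inclusion between R1 (circles) and R2 (squares) among those whose intervals do not overlap; x axis, inclusion in percent, with 95% Clopper-Pearson intervals as bars. Most were not in the naming rule. Exons higher in R1, such as Cacnb1, are in the lower part and those higher in R2, such as Pdlim7, at the top.

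The Mef2d, Ppp3ca and Slc37a4 exons shown at the start were included at 26.5 to 44.3% in R1 and at 0 to 2.82% in R2. These were picked after their values were seen, as were all exons of this and the next paragraph unless in the naming rule. The 21 nt exon of Mef2d had 70 and 64 inclusion reads against 186 skipping reads in R1, and 7 and 6 against 224 in R2. Inclusion was 26.5% (21.2 to 32.4) and 2.82% (1.23 to 6.14). Its relative Mef2a had a 24 nt exon at 19.1% (13.7 to 26.0) and 2.17% (0.0550 to 11.5). The 30 nt exon of Ppp3ca had 55 and 74 inclusion reads against 84 in R1 and none against 55 in R2, or 43.4% (35.5 to 52.0) against 0 with an upper limit of 6.49%. For Slc37a4, 158 and 213 inclusion reads stood against 233 in R1 and none against 88 in R2, or 44.3% (39.6 to 49.3) against 0 with an upper limit of 4.11%. The transcript tables gave 8.58% and 1.94% for Mef2d and 69.4% and 0 for Ppp3ca, but 63.5% and 60.2% for Mef2a. Gene levels did not follow one direction: Mef2d was at 74.6 TPM in replicate 1 and 126 TPM in replicate 2, Ppp3ca at 25.3 and 41.7, and Slc37a4 at 36.8 and 16.8.

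Further exons were low in R2 in the same way. Capzb, a capping protein of actin filaments, had a 113 nt exon at 29.6% (24.3 to 35.7) in R1 and 2.63% (0.320 to 9.18) in R2. Svil, supervillin, had a 96 nt exon at 46.2% and 0.637%, Abcc9, a subunit of the ATP-sensitive potassium channel, a 176 nt exon at 45.2% and 0, and Ehbp1l1 a 36 nt exon at 38.9% and 0. Mfn2, which fuses mitochondria, had an 83 nt untranslated exon with 411 and 236 inclusion reads against 664 in R1, and 2 and 6 against 343 in R2, or 32.8% and 1.15%. The transcript tables gave 35.2% in replicate 1 and 1.09% in replicate 2 for Mfn2 and 48.5% and 11.6% for Capzb. For Svil they gave 52.3% and 39.8%, without the low level that the junctions showed in R2, and for Abcc9 and Ehbp1l1 no value.

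Of the 58 named exons higher in R1 by over 20 points, 14 were under 5% in R2, while none of the 32 higher in R2 was under 5% in R1. The 8 skeletal muscle markers summed to 27428 TPM in replicate 1 and 13.4 TPM in replicate 2. Of 10 splicing regulators listed, Rbfox1, a splicing factor of neurons and muscle, was at 14.2 and 0.23 TPM. Esrp1, Rbfox2, Ptbp2, Nova1 and Rbm20 were also lower in replicate 2. Esrp2, Celf2, Mbnl1 (131.64 and 135.28 TPM) and Ptbp1 (119.96 and 198.65 TPM) were higher there. Genes known for muscle-regulated exons held 2 of the 58 exons higher in R1 and 3 of the 32 higher in R2. Gene TPM was higher in replicate 1 for 21 of the 58 and 15 of the 32. Inclusion in R1 had a rank correlation of 0.758 with the transcript share of replicate 1 and 0.718 with that of replicate 2. Inclusion in R2 had 0.743 with replicate 2 and 0.718 with replicate 1. All 4 values are across the 1127 triples with both kinds of transcript. The part of muscle RNA in these differences was not tested, and in bulk tissue a different mix of cells and different splicing within a cell type cannot be told apart.

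GC content moved with the direction of the difference. The 58 named exons higher in R1 by over 20 points had a median GC content of 48.3%, and the 32 higher in R2 63.6%. Among the 1183 named triples with 10 to 90% inclusion, those with the lowest GC content (28.2 to 50%, n = 404) had a median difference of R2 minus R1 of -5.47 points, and 281 were higher in R1. The middle group (50.2 to 57.1%, n = 385) had -2.11 points, and the group with the highest GC content (57.3 to 85.2%, n = 394) had 3.11 points, with 257 higher in R2. Across all 2397 named triples the rank correlation of GC content with the difference was 0.281. The part of base composition in the single exons above was not tested. Examples at the 2 ends, picked after their values were seen, were the 289 nt untranslated exon of Spry1, with 84.8% GC and an inclusion of 40.4% in R1 and 87.5% in R2, and the 43 nt exon of Rbfox2, with 37.2% GC and an inclusion of 62.5% and 28.2%.

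**Figure D5:**
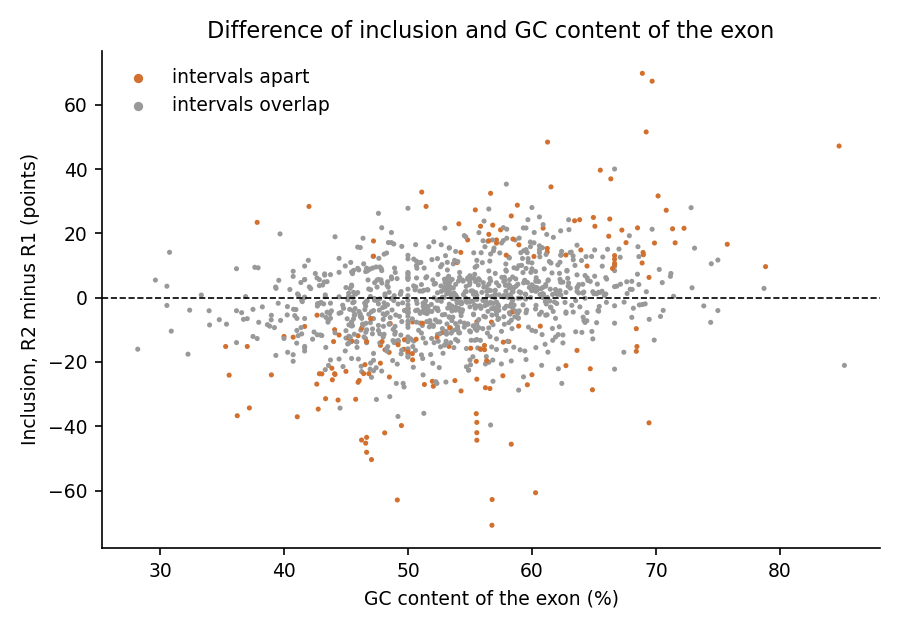
GC content of the exon (x axis, percent) against the difference of inclusion, R2 minus R1 (y axis, percentage points), for the 1183 named triples with 10 to 90% inclusion. Orange points have R1 and R2 intervals that do not overlap; the cloud drifts from below 0 at low GC content to above 0 at high GC content.

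Genes known for muscle-regulated exons formed the list with 28 triples in 11 genes of 31. Their median inclusion was 76.5%, and in 10 the intervals did not overlap, 3 higher in R1 and 7 in R2; over all 2397 named triples this held in 268 (11.2%), 172 higher in R1 and 96 in R2. Mbnl1, itself a splicing factor, held 5 of the 7 higher in R2, of which 4 are its 36 nt and 95 nt exons, each counted in 2 triples that share reads. Its 54 nt exon was at 4.69% (3.58 to 6.13) in R1 and 4.99% (3.60 to 6.87) in R2. Its 36 nt exon was at 70.6% (67.9 to 73.2) and 83.4% (80.9 to 85.8), and its 95 nt exon, in the triple with most reads, at 91.5% (89.2 to 93.5) and 96.5% (94.7 to 97.8). The 95 nt exon of its relative Mbnl2 was at 66.8% (58.6 to 74.5) and 89.3% (82.2 to 94.4), and its 54 nt exon at 17.1% and 18.6%. A 114 nt untranslated exon of Mbnl1 was at 47.8% (36.7 to 59.6) and 79.4% (71.0 to 86.4). The Mbnl2 and 114 nt exons were picked after their values were seen. The transcript tables gave 54.3% and 53.9% for the 54 nt, 92.2% and 96.7% for the 36 nt and 19.5% and 57.4% for the 114 nt exon of Mbnl1. A 307 nt coding exon of Mef2d, the gene of the 21 nt exon, was at 97.3% and 96.2%. Its inclusion junctions were uneven, at 653 and 60 reads in R1 and 1325 and 79 in R2.

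RNA-binding protein genes gave 33 triples with a median inclusion of 71.4%. In 5 (15.2%) the intervals did not overlap, 4 higher in R1 and 1 in R2, a share near the 11.2% of all named triples. The Rbfox2 pair behaved differently from each other: the 40 nt exon was at 83.4% (79.2 to 87.1) and 82.5% (78.4 to 86.1), the 43 nt exon at 62.5% (54.5 to 70.0) and 28.2% (19.9 to 38.6). Both are counted against the same 60 and 70 skipping reads. Each value leaves out the reads that join the other exon, so neither is a share of all Rbfox2 RNA. The 40 nt exon had 252 and 352 inclusion reads in R1 and 263 and 396 in R2, whereas the 43 nt exon had 88 and 112 in R1 and 8 and 47 in R2. In the RBFOX family the 43 nt form is known from muscle. Total Rbfox2 was at 27.2 TPM in replicate 1 and 25.5 TPM in replicate 2.

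Ptbp1, the polypyrimidine tract binding protein, had a 78 nt exon at 44.1% (39.4 to 49.0) and 39.9% (36.8 to 43.1), with overlapping intervals. A 34 nt exon of the same gene, whose skipped form is annotated without a coding transcript, was at 93.5% and 89.7%. The related 34 nt exon of Ptbp3 was at 39.9% (31.9 to 48.9) in R1 and 24.7% (20.3 to 29.8) in R2, with transcript shares of 66.4% and 23.5%. The Ptbp1 34 nt and Ptbp3 values were picked after they were seen. Hnrnpa2b1, which makes the hnRNP A2 and B1 proteins, had a 36 nt exon at 1.51% and 0.818% over 555 and 667 skipping reads. The 85 nt exon of Rbm5 was at 93.6% and 96.7%, and an 80 nt untranslated exon of Snrnp70, a U1 snRNP protein, at 3.001% and 1.76%. A 60 nt exon of Snrnp70 had 2537 reads on its upstream and 6 on its downstream junction in R1, so its 92.3% inclusion is carried by 1 junction.

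Trafficking genes gave 23 triples with a median of 71.6%; in 9 the intervals did not overlap, 8 of them higher in R1, and 2 of the 9 concern the same Epn1 exon. Over all 2397 named triples the intervals did not overlap in 268 (11.2%), 172 higher in R1 and 96 in R2. The 36 nt exon of Clta had 7 and 23 inclusion reads against 386 in R1 and 1 and 1 against 465 in R2, or 3.74% (2.11 to 6.09) and 0.215% (0.00543 to 1.19), and the transcript tables gave 3.52% and 0.118%. Picalm had a 150 nt exon at 21.2% (19.2 to 23.2) and 15.7% (13.1 to 18.6) and the 24 nt exon at 63.1% and 59.5%. A 104 nt untranslated exon of Epn1, an endocytic adaptor, was at 94.7% (92.5 to 96.4) and 87.1% (84.4 to 89.4). Its inclusion junctions were uneven, at 957 and 113 reads in R1 and 1189 and 91 in R2, against 30 and 95 skipping reads. A 291 nt exon of the COPII coat gene Sec31a was at 77.6% and 79.9%, with intervals that overlapped. The Sec31a junctions were also uneven, at 816 and 119 reads in R1 and 767 and 58 in R2, against 135 and 104 skipping reads. The 1 exon higher in R2 was the 171 nt exon of Epn2, at 5.62% (1.85 to 12.6) and 27.03% (19.04 to 36.3), named here because it was alone.

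Genes with exons regulated by the epithelial ESRP factors gave 14 triples with a median of 53.1%, and in 1 (7.14%, beside 11.2% of all named triples) the intervals did not overlap. That was the 39 nt exon of Exoc7, with 24 and 25 inclusion reads against 171 in R1 and 1 and 0 against 69 in R2, or 12.5% (8.43 to 18.3) and 0.719% (0.0362 to 7.70), with transcript shares of 25.5% and 14.2%. The 120 nt exon of Arhgef11 was at 25.5% and 23.0%, the 84 nt exon of the polarity gene Scrib at 26.1% and 27.7%, and the 111 nt exon of the kinase gene Mink1 at 72.8% and 81.5%. Esrp1 was at 8.55 and 6.01 TPM and Esrp2 at 15.6 and 22.4 TPM in replicates 1 and 2.

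Cytoskeleton and adhesion genes had the lowest median inclusion of the 6 lists, 31.3% over 31 triples, and 27 of these (87.1%) had a length divisible by 3, beside 49.4% of all named triples. Fibronectin, Fn1, carries 2 extra domains on single exons. The 270 nt exon was at 21.9% (19.1 to 24.9) in R1 and 27.9% (24.3 to 31.9) in R2 and the 273 nt exon at 10.1% (8.76 to 11.6) and 11.97% (10.4 to 13.7). In both exons the junction reads were uneven, such as 104 and 254 for the 270 nt exon in R1. The 24 nt exon of Flna had 185 and 226 inclusion reads against 533 in R1 and 145 and 210 against 457 in R2, or 27.8% (24.7 to 31.3) and 28.0% (24.6 to 31.7). Abi1, of the actin-regulating WAVE complex, had an 87 nt exon at 58.0% and 52.0%. Macf1, a linker of microtubules and actin, had a 102 nt exon at 10.3% (8.30 to 12.8) and 6.24% (4.91 to 7.79), with transcript shares of 13.0% and 11.6%. Kif1b, a kinesin, had a 72 nt exon at 99.4% and 98.9%.

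Insulin, adipocyte and nuclear receptor genes gave 23 triples with a median of 70.3%, and 1 (4.35%, beside 11.2% of all named triples) in which the intervals did not overlap. That was the 30 nt exon of Acly, the enzyme that makes cytosolic acetyl-CoA for fat synthesis, with 773 and 697 inclusion reads against 2587 in R1 and 675 and 660 against 2876 in R2. Its inclusion was 22.1% (20.7 to 23.6) and 18.8% (17.6 to 20.2), a small difference beyond counting error. The transcript shares, 34.3% in replicate 1 and 39.8% in replicate 2, were ordered the other way. Cd36, a fatty acid transporter, had a 54 nt untranslated exon at 78.5% and 73.1%. The coding exons of Adipor1 (194 nt) and Mlxipl (185 nt) and the partly coding exon of Ghr (79 nt) were above 98% in both libraries. The 36 nt exon of Insr separates the 2 receptor isoforms, and was at 71.4% (59.3 to 82.0) in R1 and 66.7% (43.0 to 85.4) in R2, on 19 and 7 skipping reads; it was added after its values were seen.

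One further gene, picked for its exons after the values were seen, shows opposite differences within 1 gene. In App, the amyloid precursor protein, the 57 nt exon was at 76.02% (72.2 to 79.6) in R1 and 54.1% (50.1 to 58.0) in R2. The 54 nt exon nearer the end was at 55.8% (50.8 to 60.8) and 77.5% (72.6 to 81.9). The 168 nt exon, which encodes a protease inhibitor domain, was at 92.8% and 91.3%, with overlapping intervals. The GC content of the 57 nt exon was 43.9% and that of the 54 nt exon 68.5%.

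The transcript tables, made on mm10 by another pipeline, allowed inclusion to be computed a second way for 1127 named triples. Junction inclusion and transcript share differed by a median of 8.81 points between R1 and replicate 1 and 9.05 points between R2 and replicate 2. In 844 triples (74.9%) both readouts lay on the same side of 50% in both libraries. Some exons disagreed widely. Arhgef11 stood at 25.5% and 23.0% by junctions and 91.4% and 93.1% by transcripts, and the 54 nt exon of Mbnl1 at 4.69% and 4.99% against 54.3% and 53.9%. The 43 nt exon of Tkt, at under 0.1% by junctions, had a transcript share of 50.6% and 34.9%. That share rested on a small part of the gene's RNA. Transcripts with and without the exon had 3.44 and 3.36 TPM in replicate 1, and 2.59 and 4.83 TPM in replicate 2. The whole gene was at 1015 TPM in replicate 1 and 1893 TPM in replicate 2. For Flna the pairs were 27.8% and 28.0% by junctions, 46.8% and 35.1% by transcripts.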

How the data were processed

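One junction table and one contig table, both on mm9 and without a header, cover the series. The junction count deposited by the authors equals R1 plus R2 in all 465423 entries; the score deposited beside it, and the signal of the contigs, have no stated meaning or unit, and how they were made is not given in the sources used here. Gene and transcript tables on mm10 hold TPM and expected counts per the file headers, deposited by the authors for each replicate; expected counts summed to 56323489 and 42400470 and were used for depth only. Triples, inclusion and Clopper-Pearson intervals (95%, inclusion reads rounded) were computed with Python 3.11.15, pandas 2.3.3 and scipy 1.17.1, and tested on simulated junctions. Intervals cover counting error only.

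Genes came from GENCODE M21 on mm10, where chromosome, strand, both intron lengths and exon length matched 1 exon of 1 gene; 35 triples matched several, and 1 match was dropped because its position went against its neighbours. Coordinates were not converted. Transcript share was the TPM of transcripts with the exon over that plus the TPM of transcripts joining its neighbours, where these summed to at least 1 TPM in each replicate. Only transcripts whose GENCODE M21 length equalled the deposited length entered, 91424 of the 141862 annotated. A share can therefore be missing or leave out part of a gene's RNA. Intron motifs and splice site scores, which need a genome sequence, were not analysed here. Unskipped exons were 20 to 500 nt long and bounded by junctions under the score limit. No junction of any score that shares an outer end with these jumps over them, but junctions with other outer ends were not checked.

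Members and lists were chosen with earlier results of these data known. Exons were named where both R1 and R2 had at least 20 informative reads: the 10 largest differences, 10 with most skipping reads, 10 lowest, 5 nearest 50%, 5 shortest and up to 6 of each gene list. Alternatives tried were other score limits and read minimums, exons in 1 triple, the smaller or balanced inclusion junctions, each library alone and the transcript share.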

Additional observations from a re-analysis of the deposited data

How the results depend on the processing

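The score limit set the collection. With a score under 0.01 there were 192 triples, a median inclusion of 71.8%, 65 triples under 50%, 63.0% of lengths divisible by 3 and 51 triples with R1 and R2 intervals that did not overlap. With no limit these were 40846, 96.5%, 5126, 38.7% and 638. The first value of each set counts all triples, and the others cover only those at the read minimum. With no limit these were 16827 of the 40846, so the 638 are 3.79% of 16827. The frame share fell from 63.0% to 46.9% to 38.7% as the limit was loosened. Median inclusion was 83.2% over exons in 1 triple, 76.6% with a minimum of 10 reads, 87.7% with 50, 63.4% with the smaller inclusion junction and 77.4% where both inclusion junctions were within 3-fold. That last condition kept 2135 of the 3288 triples. Intervals did not overlap in 232 of the 2135, against 374 of the 3288. Leaving out the 187 triples with a junction inside the exon, a choice made after seeing the data, gave a median of 80.2%. The median was 80.5% from R1 alone and 80.8% from R2 alone, with 1080 and 1119 triples under 50%. The other counts and frame shares under these settings stayed within 1.5 times or within the counting interval. Of 69 named triples, 55 were on the same side of 50% in R1 and R2, and of 44 with a transcript share, 9 differed from it by over 20 points. No paired analysis was possible because the labels give 1 group. Depth limited exons near the read minimum, such as the 20 nt exon of Pgap2, whose interval in R2 ran from 34.5 to 76.8%.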
